A study of Mus musculus with 5 samples.

Results

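The neurons described here are nuclei of the mouse central amygdala (CeA) dissection that carried many transcripts of Pde1c, a phosphodiesterase that is switched on by calcium and calmodulin and breaks down cyclic AMP and cyclic GMP. The study used Pde1c to place a cluster of neurons in the IPAC. The IPAC is an interstitial nucleus next to the CeA, named after the anterior commissure's posterior limb. Members were chosen by their measured Pde1c and Foxp2 levels and were inhibitory nuclei with at least 15 Pde1c unique molecular identifiers (UMIs, 1 per captured RNA molecule) and fewer than 8 Foxp2 UMIs per 10000 UMIs of the nucleus. A nucleus counted as inhibitory when it held 500 to 8000 genes, less than 0.8% mitochondrial UMIs and at least 1 UMI of Gad1 or Gad2, which encode the enzymes of GABA synthesis. Of 23839 barcodes in the 5 libraries, 7161 lay within these bounds on genes and mitochondrial UMIs, 6020 of these were inhibitory, and 203 were members, 3.37% of the inhibitory nuclei. The levels of both genes are given below as a description, and the pair stands with Gad1 and Gad2 outside every test.

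The nuclei were sequenced with a droplet method in which each nucleus receives a barcode and each captured RNA molecule a UMI, and the deposited values are UMI counts per gene and nucleus. Each of the 5 libraries pooled CeA tissue from 1 male and 1 female brain, 2 mice in all. Fed replicates 1 and 2 came from mice of 8 weeks with free access to food. Fed replicate 3 came from Htr2a-Cre mice of 12 weeks that had received an adeno-associated virus carrying DIO-mCherry, in which Cre switches on the fluorescent protein mCherry. Fasted replicates 1 and 2 came from mice of 8 weeks without food for 20 and 21 hours.

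The IPAC is part of the extended amygdala, the band of GABA neurons that runs between the amygdala and the basal forebrain, and it has been linked to the intake of palatable food. It lies against the striatum, where GABA projection neurons fall into classes that carry the dopamine receptor Drd1 with the peptides dynorphin and substance P (Pdyn, Tac1), or the dopamine receptor Drd2 with the adenosine receptor Adora2a and the peptide enkephalin (Penk). In these classes dopamine acts on cyclic AMP through the adenylyl cyclase Adcy5 and the olfactory-type G protein subunit Gnal, and phosphodiesterases end that signal.

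Fed replicates 1 to 3 held 23, 23 and 55 members, and each of both fasted replicates held 51. Their summed UMIs were 167914, 414778 and 822100 in the fed libraries and 307244 and 973243 in the fasted ones, with medians of 6899, 18833, 13402, 5968 and 16281 UMIs per nucleus in the same order. Depth therefore differed within each feeding state, and replicate 1 was the shallow library in both. The median mitochondrial share of the members was 0.105%, 0.0349% and 0.0406% in the fed libraries and 0.352% and 0.268% in the fasted ones, so the feeding states did not overlap in it. No barcode of a member occurred in more than 1 library, against 3 of 7158 barcodes within the bounds, and 2 members were called doublets.

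The members' median Pde1c level was 42.2 UMIs per 10000, with a lowest value of 15.2 and a highest of 214. Summed per library and scaled to counts per 1000000 UMIs of the sum (CPM), Pde1c stood at 5370, 4656 and 5489 in the fed members and 4571 and 4353 in the fasted ones, against 58.2 to 94.3 in the other 5817 inhibitory nuclei. The nuclei nearest to the threshold stood at 15.2, 15.6 and 15.8 inside and 14.6, 14.4 and 14.2 outside, and 46 nuclei lay between 10 and 15 against 21 members between 15 and 20. The Foxp2 limit took out 1 nucleus, and 167 members had no Foxp2 UMI. Low Pde1c counts occurred widely: with each nucleus thinned to 4000 UMIs, 17.4% of other inhibitory nuclei and 31.2% of glial nuclei had a Pde1c UMI, and at full depth 5 of 546 glial nuclei reached 15 per 10000.

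**Figure D1:**
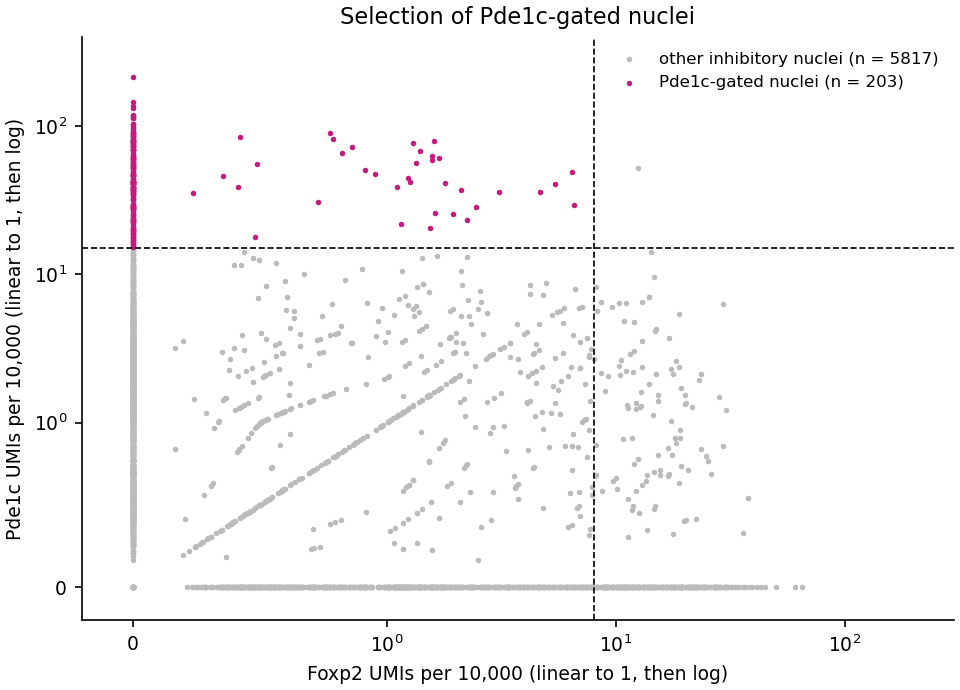
Pde1c against Foxp2 UMIs per 10,000 in each of 6020 inhibitory nuclei, on axes that are linear up to 1 and logarithmic above, with dashed lines at the selection limits of 15 and 8. The 203 members (magenta) fill the upper left, where 167 of them have no Foxp2 UMI, and 1 other nucleus with Pde1c of at least 15 lies to the right of the Foxp2 limit.

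The other genes given as marks of this population, Rarb, Drd2 and Crh, were higher in the members than in the other inhibitory nuclei, but not in every member. Rarb encodes a retinoic acid receptor and lies on the plus strand at chr14:5650540-6041094 (GRCm39). Its summed level in the members was 447, 596 and 780 CPM in the fed libraries and 463 and 419 in the fasted ones, against 276, 279, 325, 317 and 190 in the other inhibitory nuclei of the same libraries. The members were above the other nuclei in 5 of 5 libraries, by 1.11 ± 0.09 on the log2 scale (SE, adjusted p = 1.43e-32 by the quasi-likelihood test of edgeR). Drd2, the dopamine receptor that lowers cyclic AMP (plus strand, chr9:49251654-49319477), stood at 238, 135 and 208 CPM in the fed members and 280 and 173 in the fasted ones, and at 44.0 to 76.1 CPM in the other nuclei. Its log2 fold change was 1.94 ± 0.11 (SE, adjusted p = 1.51e-63).

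Crh encodes corticotropin-releasing hormone, the stress peptide of the extended amygdala, and lies on the minus strand at chr3:19747565-19749655. It gave 47.7, 21.7 and 13.4 CPM in the fed members and 32.6 and 25.7 in the fasted ones, from 8 to 25 UMIs per library, against 1.86 to 4.15 CPM in the other inhibitory nuclei. The groups did not overlap, and the log2 fold change was 3.1 ± 0.33 (SE, adjusted p = 1.84e-19). After thinning to 4000 UMIs, 67.9% of 193 members had a Rarb UMI, 41.5% a Drd2 UMI and 9.33% a Crh UMI. The shares in the other inhibitory nuclei were 34.7%, 15.2% and 1.08%, and in glial nuclei, which stand here for the background, 14.9%, 1.98% and 0 of 202 nuclei (up to 1.49%). By library, the members' Crh share after thinning was 27.3%, 4.76% and 3.70% in the fed libraries and 15.6% and 3.92% in the fasted ones. The median depth before thinning was 11460 UMIs in these members and 5323 in the glial nuclei. At full depth 161, 117 and 43 of the 203 members had a UMI of Rarb, Drd2 and Crh, and 58 members had at least 8 Rarb UMIs per 10000. The study assigned a cluster with Pde1c to the IPAC, but these nuclei were chosen by UMI limits alone, were not matched to that cluster and may hold other populations. They carry no position and are named here by the gene that selected them.

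**Figure D2:**
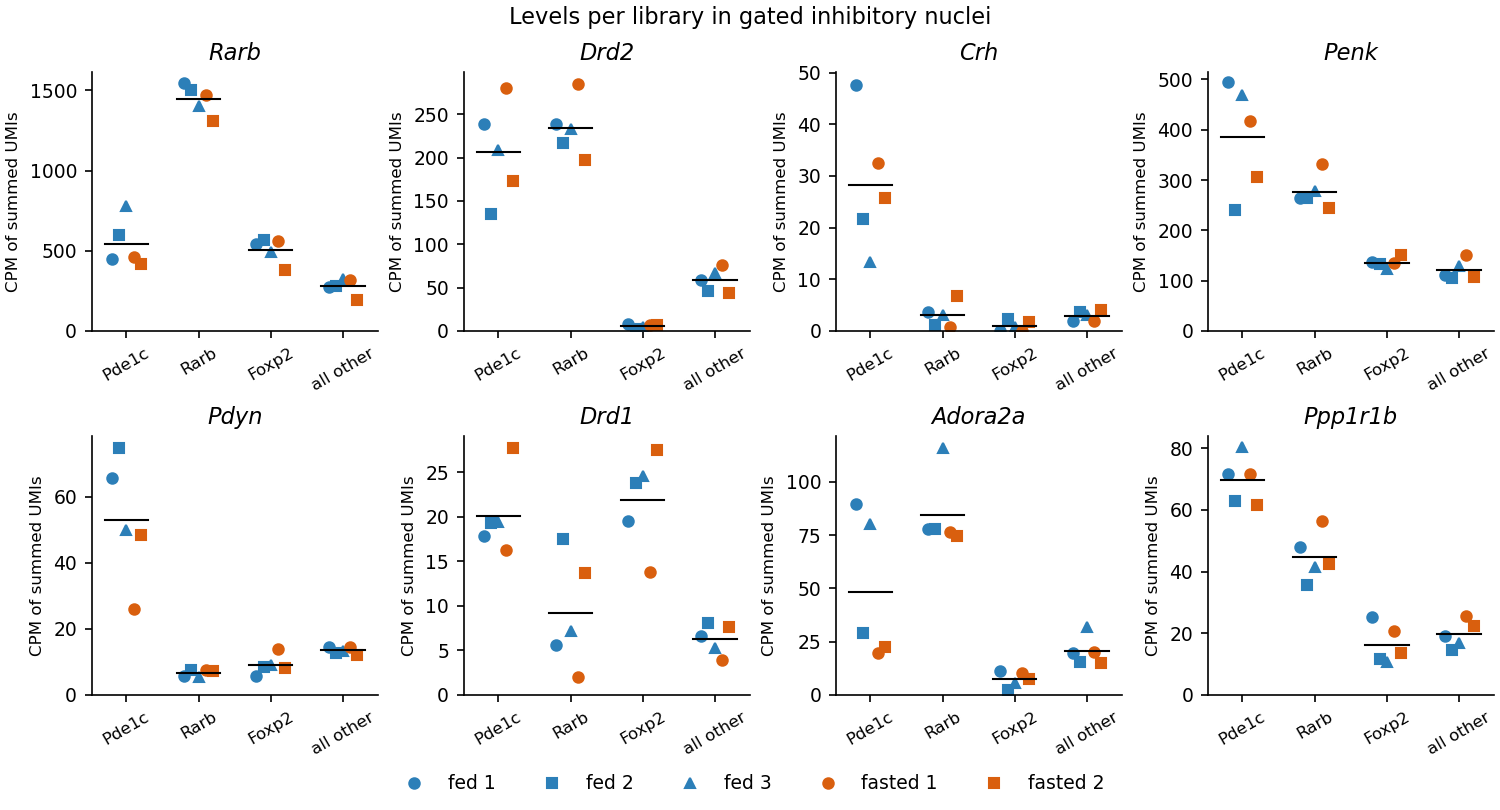
CPM of summed UMIs (linear axes from 0) of 8 genes in 5 libraries, for nuclei gated by Pde1c (n = 203), Rarb (n = 731) or Foxp2 (n = 393) and for all 5817 inhibitory nuclei other than the members, with lines at the means. Crh and Pdyn of the Pde1c-gated nuclei lie above the other populations in each library, Drd2 overlaps with the Rarb-gated nuclei, and Adora2a ranges from 19.5 to 89.4 CPM among the libraries of the Pde1c-gated nuclei.

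Across 12450 genes tested, 1012 were higher (8.13%) and 1542 lower (12.4%) in the members than in the other inhibitory nuclei at an adjusted p under 0.05. With the size factors and test of DESeq2 the split was 904 higher and 917 lower, and with each member set against the inhibitory nucleus of its library nearest in UMIs it was 670 and 691 of 6807 genes. Among the 12 largest rises of genes with at least 30 CPM in the members and a rise in each library, Myo3b, a myosin with a kinase domain, stood at 179, 50.7 and 158 CPM in the fed members and 166 and 107 in the fasted ones, against 13.1 ± 2.20 in the other nuclei (SD, n = 5). Its log2 fold change was 3.43 ± 0.16 (SE), with fed replicate 2 the lowest of the 5 libraries. Bmpr1b, a receptor for bone morphogenetic proteins, reached 352, 396 and 117 CPM in the fed members and 267 and 283 in the fasted ones, and 29.9 to 50.8 in the other nuclei. It was higher by 2.84 ± 0.11 on the log2 scale. Phactr1, which binds actin and protein phosphatase 1, had the smallest adjusted p of all genes tested (1.06e-182) and stood at 12021 to 16417 CPM in the members against 2761 to 3686 in the other nuclei.

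The remaining genes of this group rose in 5 of 5 libraries with log2 fold changes of 2.17 to 2.95. They were the kinases Stk32a and Prkch (protein kinase C eta), the Rab regulator Tbc1d4 of insulin-driven glucose uptake, lipoprotein lipase (Lpl), the hedgehog transcription factor Gli3, the ubiquitin ligase Sh3rf2, the chloride channel family member Clic6, the endocannabinoid-degrading lipase Mgll, and Kctd8, an auxiliary subunit of GABA-B receptors. Mgll stood at 336 to 788 CPM in the members against 84.1 to 207. Kctd8 ranged from 851 to 1645 CPM in the members against 264 to 317. For Lpl the values rest on 7 to 30 UMIs per library.

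Among called genes with at least 30 CPM in the other nuclei and a fall in each library, the 8 largest falls began with Zfp423 and Tacr1. Zfp423, a zinc finger factor, gave 11.9, 0 and 1.22 CPM in the fed members and 0 and 10.3 in the fasted ones, against 41.6 to 55.7 in the other nuclei. Tacr1, the receptor for substance P, gave 0 to 15.8 CPM against 84.8 to 110, a log2 fold change of -3.19 ± 0.22 (SE). Kcnj6, a potassium channel subunit opened by G proteins, stood at 7.24 to 41.7 CPM against 124 to 135. The factors Sox6, Tshz2 and Rreb1, the synaptic adhesion gene Igsf21 and Phactr2 completed the group, with log2 fold changes of -2.95 to -3.05. Tshz2 differed among the member libraries from 23.8 to 121 CPM, still below the 611 to 797 CPM of the other nuclei.

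**Figure D3:**
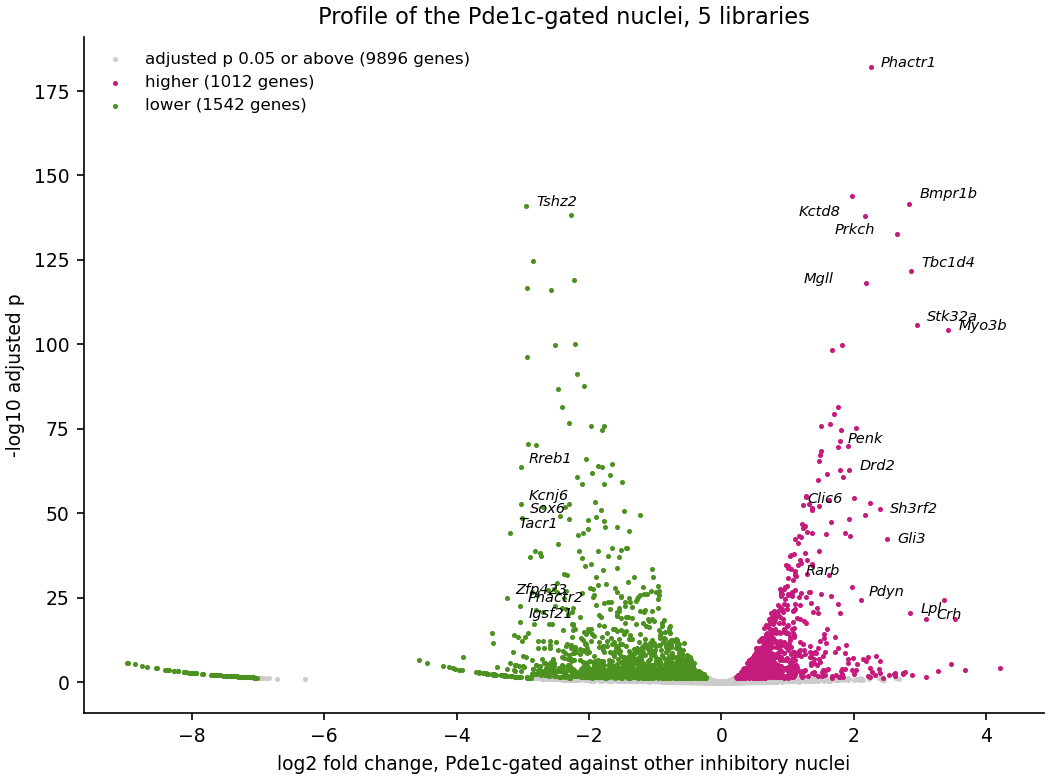
Log2 fold change of the members against the other inhibitory nuclei (x axis) and -log10 of the adjusted p (y axis) for 12450 genes, each a point, with named genes labelled. Phactr1, Bmpr1b and Myo3b stand out on the right and Tshz2 on the left, and the row of points at the far left holds genes with few or no UMIs in the members, whose fitted fold is no bound.

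Genes of striatal projection neurons were mostly higher. Of 28 listed, 26 were tested, 18 rose and 1 fell, with a median log2 fold change of 1.02 against -0.07 over all tested genes. For this list and those that follow, the shares over all tested genes were 8.13% higher and 12.4% lower. Ppp1r1b (DARPP-32), the phosphatase inhibitor through which dopamine acts, stood at 71.5, 62.7 and 80.3 CPM in the fed members and 71.7 and 61.7 in the fasted ones, against 14.7 to 25.5 in the other nuclei, and its log2 fold change was 1.97 ± 0.17 (SE). Gng7, Adcy5 and Gnal, the parts of the cascade from dopamine receptor to cyclic AMP, rose by 1.76, 1.64 and 1.37. The striatal factors Bcl11b, Foxp1, Six3 and Meis2 rose by 0.96, 1.12, 1.12 and 0.63. Ebf1, a factor of Drd1-bearing striatal neurons, was the 1 that fell (-0.51 ± 0.11), and Rgs9 stood at 156 ± 59.0 CPM in the members and 167 CPM in the others (SD, n = 5), a log2 fold change of -0.01 ± 0.11.

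Receptors for dopamine, adenosine and acetylcholine gave 6 rises and 1 fall among 9 tested of 13. Drd1 rose by 1.88 ± 0.29 on the log2 scale from low levels, 16.3 to 27.8 CPM in the members against 3.96 to 8.11, and Adora2a rose by 1.21 ± 0.20. Adora2a varied more than the others among the members, with 89.4, 28.9 and 80.3 CPM in the fed libraries and 19.5 and 22.6 in the fasted ones. Adora1 and the muscarinic receptors Chrm1 and Chrm3 also rose, and Chrm2 fell by 1.5 on the log2 scale.

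Among 28 enzymes that make, break or are activated by cyclic nucleotides, 12 rose and 8 fell (median log2 fold change 0.25). The phosphodiesterases Pde1b (1.48 ± 0.11), Pde10a (0.74), Pde7b (0.70) and Pde8b (0.70) rose, and so did Pde1a, the nearest relative of Pde1c in the list, by 0.47. Pde3a (-3.07), Pde8a (-2.05) and Pde4b (-0.95) fell. The cyclases divided in the same way: Adcy5, Adcy9 (1.07) and Adcy3 (0.46) rose, and Adcy2 (-1.89), Adcy6 (-1.85) and Adcy8 (-2.24) fell. Of 25 calcium and calmodulin genes, 9 rose and 5 fell (median 0.04). Itpr1 and Ryr3, which release calcium from stores, rose by 1.16 and 1.28, and the T-type calcium channel Cacna1g fell by 2.33.

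Of 22 neuropeptide genes, 14 were tested, 4 rose and 5 fell (median -0.15). The 4 were Crh, Penk, Pdyn and the granule protein Scg2. Penk stood at 495, 241 and 470 CPM in the fed members and 417 and 306 in the fasted ones, against 106 to 151 in the other nuclei, a log2 fold change of 1.76 ± 0.10. Pdyn gave 65.6, 74.8 and 49.9 CPM in the fed members and 26.1 and 48.3 in the fasted ones, against 12.2 to 14.6 in the others, and rose by 2.11 ± 0.20. The 5 that fell were Sst, Npy, Tac2, Pnoc and Chgb. Pnoc, the nociceptin precursor, gave 1 UMI in all 203 members.

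In the 7 genes of the CRH system, 4 were tested. Crh rose and the receptors Crhr1 and Crhr2 and the binding protein Crhbp fell, with a median log2 fold change of -1.97, or -1.04 with Crhr2 set at its bound. Crhr1 gave 8.90 ± 6.37 CPM in the members and 26.1 in the others (SD, n = 5). Crhr2 had no UMI in the members and was at least 2.05-fold lower than in the other nuclei, with 3 UMIs over all members as the floor.

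Opioid and cannabinoid genes were divided, with 3 rises and 3 falls among 8 tested of 9 (median 0.02). The mu and kappa opioid receptors Oprm1 and Oprk1 rose by 1.11 ± 0.11 and 1.56 ± 0.20, and Mgll is described above. The delta receptor Oprd1, the nociceptin receptor Oprl1 and the anandamide hydrolase Faah fell. Serotonin receptors gave 3 rises (Htr1b 1.57, Htr2a 1.05, Htr2c 0.61) and 4 falls (Htr1f, Htr4, Htr5a and Htr7) among 10 tested of 12 (median 0.16). Htr2a gave 22.8 ± 15.6 CPM in the members and 11.9 in the others (SD, n = 5).

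Of 33 receptors for feeding hormones and peptides, 23 were tested, 2 rose, 6 fell and 15 did not pass (median -0.28). The 2 rises were near the share over all tested genes, of which 8.13% were higher and 12.4% lower. Ramp1, a partner of the calcitonin-family receptors, rose by 1.35 ± 0.13 to 126 ± 21.1 CPM, and the calcitonin receptor Calcr rose by 2.40 from 0 to 13 UMIs per library. Tacr1, Npy2r, Hcrtr2, Ntsr1, Igf1r and Glp1r fell. Glp1r had no UMI in the members and was at least 2.22-fold lower than in the others, and the ghrelin receptor Ghsr was seen in 0 of 203 members, which allows a share of nuclei with a UMI of up to 1.48%.

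Transcription factors of the subpallium fell more often than they rose. Of 47 listed, 42 were tested, 8 rose and 23 fell, with a median log2 fold change of -1.28, or -1.07 with genes at 0 set at their bounds. Beside the striatal factors above, Etv1 rose by 1.79 ± 0.18, Dlx6 by 1.01, Lmo3 by 0.70 and Zfhx4 by 0.27. Sox5 (-2.47), Nfib (-2.51), Pax6 (-3.13), Nr2f1 (-2.27) and Tcf4 (-1.86) were among those that fell. Lhx8 and Nkx2-1, factors of cells born in the medial ganglionic eminence, had no UMI in the members and were at least 5.04-fold and 1.87-fold lower.

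Of 20 marker genes of CeA cell types, 12 fell, 2 rose (Htr1b and Htr2a) and 6 did not pass (median -1.13). Il1rapl2 and Tafa1, markers of the medial CeA, fell by 2.93 and 2.70 on the log2 scale, with 36.6 and 20.8 CPM in the members against 336 and 147. Sst fell by 2.06 and Prkcd by 1.37. Vdr had no UMI in the members, at least 5.48-fold below the others, while Calcrl and Cdh9 had log2 fold changes of -0.03 and -0.06 that did not pass. At full depth, however, Calcrl had a UMI in 9.36% of the members and in 20.0% of the other inhibitory nuclei. Summed over the 20 genes, the members held 334, 748 and 576 CPM in the fed libraries and 443 and 659 in the fasted ones, against 1270 to 1491 in the other nuclei. Nuclear receptors and retinoic acid genes, without Rarb, gave 5 rises and 7 falls among 21 tested of 26 (median -0.16). The mineralocorticoid receptor Nr3c2 rose by 1.21 and Cyp26b1, which degrades retinoic acid, fell by 3.00.

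Ion channel and receptor families changed in both directions. Of 35 potassium and HCN channel genes, 12 rose and 12 fell (median 0.04), with Kcnq5, a subunit of the M current, at 4750 to 5424 CPM in the members against 1596 to 1838 in the others (1.67 ± 0.08), and Kcnc2 lower by 2.30. Glutamate receptors gave 7 rises and 10 falls among 24 (median -0.12), led by Grm3 (1.20) and by Grik1 (-2.30) and Grm8 (-2.08). GABA receptors and transporters gave 6 rises and 4 falls among 17 tested of 18 (median 0.19), and the rises included Gabrd (1.49) and Gabra4 (1.21), subunits of receptors outside the synapse. Among 58 genes of adhesion and axon guidance, 14 rose and 26 fell (median -0.28), with Cdh6 (1.87), Cntn3 (1.22) and Unc5c (1.17) higher and Sema5a (-2.49), Pcdh15 (-2.17) and Slit2 (-2.16) lower.

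Of 18 clock genes, 10 rose, 1 (Rorb) fell and 7 did not pass (median 0.44). Npas2, which forms the core clock dimer in forebrain, rose by 1.18 ± 0.09, and Per1, Per2, Cry1 and Hlf rose by 0.92 to 1.19. Glucocorticoid-induced genes gave 4 rises and 2 falls among 14 tested of 15 (median -0.08), with Sgk1 higher by 1.06. Immediate-early genes gave 5 rises and 3 falls among 21 of 23 (median -0.39), with Homer1 (0.80), Nr4a1 and Nr4a3 higher. Genes of insulin signalling and the fasting response gave 2 rises and 5 falls among 20 of 26 (median -0.35), with Klf9 and Sesn3 higher by 0.47 and 0.33. Those 2 rises were near the share over all tested genes, of which 8.13% were higher and 12.4% lower.

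Markers of excitatory neurons gave 3 UMIs in all, with Slc17a6 and Neurod6 at 0, and markers of basolateral interneurons gave 8, with Nkx2-1 and Vip at 0. Microglial markers gave 9 UMIs, in the fasted libraries (9.77 and 6.17 CPM) but in no fed library, cholinergic markers gave 5 and endothelial markers 1. Astrocyte markers summed to 165 ± 62.8 CPM in the members and 260 ± 48.2 in the others, most of it Slc1a2, oligodendrocyte markers to 179 ± 42.0 and 202 ± 30.9, most of it Mbp, and markers of oligodendrocyte precursors to 19.8 ± 14.3 and 36.0 ± 6.38 (SD, n = 5). The 3 markers of intercalated neurons summed to 223 ± 28.3 CPM against 149 ± 27.1, most of it Oprm1, with Oprm1 and Drd1 higher and Tshz1 lower. Of genes tested on these lists, 0 rose and 3 of 3 fell for interneurons, 0 and 2 of 5 for astrocytes, 0 and 1 of 3 for precursors, 0 and 1 of 3 for microglia and 0 and 1 of 2 for cholinergic neurons. None of the 4 oligodendrocyte genes passed the threshold, nor did Slc17a7, the 1 excitatory gene tested, and no endothelial gene was tested.

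The members were not uniform. Grouping them on 1000 variable genes gave 4 subgroups of 70, 62, 55 and 16 nuclei, which are described here without tests because the same genes formed them. Subgroup 1 was led by Pdyn, Otof, Oprk1, Pld5, Lingo2 and Drd1. Pdyn was detected in 62.9% of its nuclei, Drd1 in 48.6% and Drd2 in 8.57%. Subgroup 2 was led by Adora2a, Epb41l2, Mtcl1 and Drd2, with a Drd2 UMI in 91.9% of its nuclei, Adora2a in 59.7% and Drd1 in 1.61%. Subgroup 3 was led by Kcnip1, Pdzrn4 and Tll2. It had Drd2 in 85.5% of its nuclei and Rarb in 50.9%, against 87.5% or more with Rarb in the other subgroups. By level, Rarb stood at 211 CPM in subgroup 3 and 281 in subgroup 4, against 912 and 716 in subgroups 1 and 2. Calcrl stood at 98.1 CPM in subgroup 3 from 8 of its 55 nuclei (14.5%), and at 29.8 CPM in subgroup 4 from 5 of 16 (31.2%). Subgroup 4 was led by Tshz2, Vipr2 and Adarb2, found in 87.5%, 25% and 62.5% of its nuclei. It carried more UMIs than the others, with a median of 22727 per nucleus against 8432 to 10850. Its median Pde1c level was 25.5 per 10000 against 40.5 to 52.0, and 1 of its 16 nuclei was called a doublet.

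Drd1 and Drd2 therefore marked mostly different members. Of 117 members with a Drd2 UMI, 4 also had a Drd1 UMI, against 37 of the 86 without Drd2. Of 56 members with Adora2a, 51 had Drd2, and of 55 with Pdyn, 32 had Drd1 and 10 had Drd2. Crh did not follow this division, since a Crh UMI was found in 24.3%, 16.1%, 21.8% and 25.0% of subgroups 1 to 4, and 22 of the 43 Crh-bearing members also had Drd2. Its level was 27.2, 18.6, 30.2 and 9.94 CPM in the same order, lowest in subgroup 4, which had the most UMIs per nucleus. Penk was found in 74.3% to 96.8% of the nuclei of each subgroup at full depth. Its share was 73.7% in the Rarb-gated nuclei described below, 48.7% in all other inhibitory nuclei and 14.1% in glial nuclei. The libraries differed in their mixture: subgroup 2 held 11 of 23, 3 of 23 and 22 of 55 members in fed replicates 1, 2 and 3 and 14 and 12 of 51 in the fasted libraries, and subgroup 1 held 5, 8, 20, 19 and 18.

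**Figure D4:**
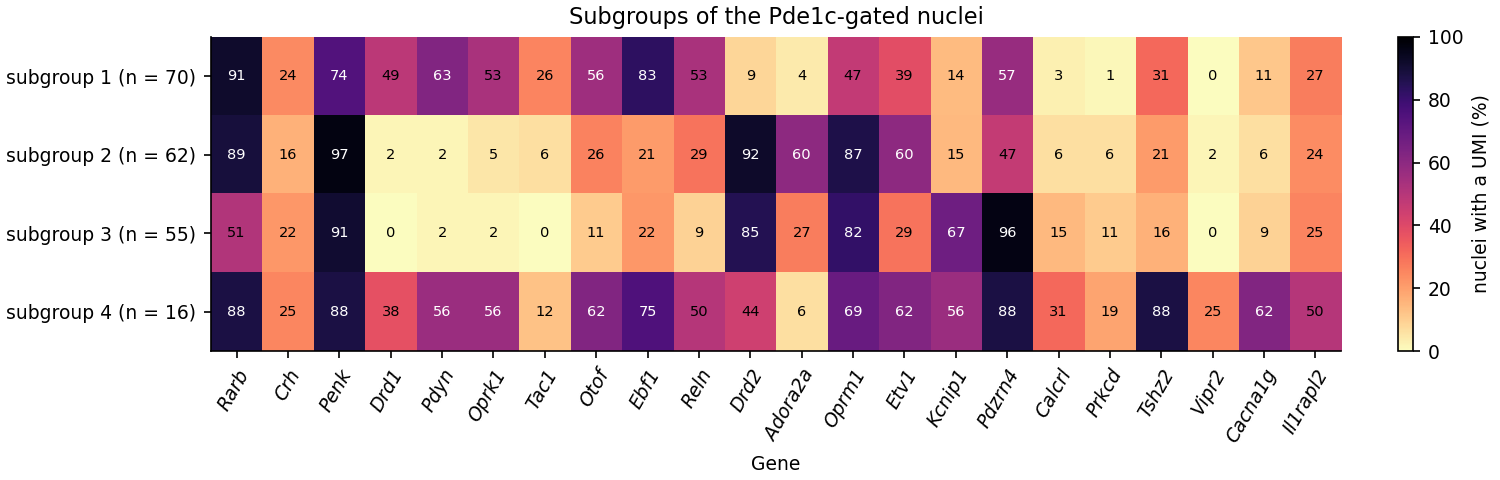
Percent of the nuclei of each subgroup (rows, n = 70, 62, 55 and 16) with at least 1 UMI of a gene (columns), as colour and number, at full depth. Pdyn and Oprk1 are found in 52.9% or more of subgroups 1 and 4, Drd2 in 91.9% and 85.5% of subgroups 2 and 3, subgroup 4 has both Drd2 (43.8%) and Drd1 (37.5%), Adora2a is commonest in subgroup 2 (59.7%), and Crh is found in 16.1% to 25.0% of each.

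The nearest comparison was with 731 inhibitory nuclei of at least 8 Rarb UMIs per 10000 outside the Pde1c and Foxp2 gates. The study assigned a cluster with Rarb to the amygdalostriatal area, but these nuclei were chosen by the UMI limit alone and may hold other populations, since Calcrl had a UMI in 34.6% of them and in 20.0% of the other inhibitory nuclei. The comparison asks what sets the members apart from another population with Rarb and Drd2. Rarb gated these nuclei and was not tested. Of 9130 genes, 642 were higher (7.03%) and 691 lower (7.57%) in the members. Drd2 stood at 197 to 284 CPM in the Rarb-gated nuclei, within which 3 of the 5 member libraries also fell, and its log2 fold change of -0.13 ± 0.10 (SE, adjusted p = 0.527) did not pass. Adora2a was lower in the members by 0.90 ± 0.20, and Pdyn was higher by 3.02 ± 0.25, from 5.48 to 7.67 CPM in the Rarb-gated nuclei. Crh was higher by 2.97 ± 0.42, against 0.688 to 6.84 CPM in the Rarb-gated nuclei.

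Myo3b (3.98 ± 0.22) and Bmpr1b (3.49 ± 0.19) led the rises, with 8.96 and 22.9 CPM in the Rarb-gated nuclei. After Pdyn and Stk32a came the transcription factors Etv1 (2.44), Klf5 (2.27) and Pou3f3 (2.19), the ciliary receptor Gpr161 (2.33), the kinase regulator Mob3b (2.24), the phosphatases Cdc14a (2.20) and Ubash3b (2.19), and Rgs6 (2.14), which shortens G protein signals. Cdc14a, Ubash3b and Mob3b had means of 13.0, 47.2 and 12.4 CPM in the Rarb-gated nuclei and of 38.9, 193 and 31.1 CPM in all inhibitory nuclei other than the members. The largest falls were in the factor Pax6, which gave 0, 0 and 7.30 CPM in the fed members and 6.52 and 0 in the fasted ones against 59.0 to 74.7 in the Rarb-gated nuclei (-4.34 ± 0.37). Banf2, Itga11, Igsf21, Runx2, Dgkk, Tenm2 and Cpne4 followed with log2 fold changes of -4.02 to -2.95. Tenm2, a synaptic adhesion protein of the teneurin family, stood at 205 to 348 CPM in the members against 1735 to 2997 in the Rarb-gated nuclei.

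Striatal projection neuron genes gave 11 rises and 3 falls among 24 tested against the Rarb-gated nuclei (median 0.38, against 0.00 over all tested genes). Ebf1 (1.55), Pdyn and Drd1 (1.20) rose, and Adora2a, Foxp1 and Sp9 fell. Opioid and cannabinoid genes gave 4 rises and 2 falls among 7, with Oprk1 (1.56), Oprm1 (1.36), Cnr1 (1.34) and Mgll (1.58) higher. Prkcd (1.56) and Dnah5 (2.46) were higher and Calcrl (-1.02) and Cdh9 (-1.05) lower, among 6 rises and 6 falls in 14 CeA markers. Prkcd was detected in 14 of 203 members (6.9%) and 8.07% of the Rarb-gated nuclei, and stood at 60.4 and 57.2 CPM in subgroups 3 and 4, from 6 and 3 nuclei, against 1.18 and 6.21 CPM in subgroups 1 and 2. Cyclic nucleotide enzymes gave 9 rises and 6 falls among 25, with Gucy1a1, a subunit of the nitric oxide receptor, lower by 2.51. Clock genes gave 5 rises and 0 falls among 18, with a median of 0.07 against 0.44 in the comparison with all other inhibitory nuclei. Subpallial transcription factors gave 9 rises and 10 falls among 31, with a median of -0.09 against -1.28. The members thus differed less from the Rarb-gated nuclei in both lists.

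A further comparison was with 393 inhibitory nuclei with at least 8 Foxp2 UMIs per 10000. Foxp2 marked the study's cluster of intercalated neurons, while these nuclei were chosen by the UMI limit alone. Of 8107 genes, 1046 were higher (12.9%) and 1009 lower (12.4%) in the members. Drd2 had the largest rise, 5.22 ± 0.20 on the log2 scale, from 2.31 to 8.40 CPM in the Foxp2-gated nuclei to 135 to 280 CPM in the members. Tll2, Bmpr1b, Mob3b, Myo3b, Prkch, Ror1, Mkx, Gli3, Stk32a, Mgll and Lpl rose by 3.80 to 4.86. Rarb did not separate these populations, with 381 to 569 CPM in the Foxp2-gated nuclei and a log2 fold change of 0.21 ± 0.13 (SE, adjusted p = 0.265), nor did Drd1, with -0.03. Npffr2, a receptor for neuropeptide FF, had no UMI in the members and was at least 28.5-fold lower, and Chst9, Hmcn1, Itga11, Vwc2l, Gpr149, Nfib and Sphkap fell by 4.72 to 6.28. Tshz1, a marker of intercalated neurons, fell by 4.54 ± 0.21 on the log2 scale, from 394 CPM to 16.1.

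Fed and fasted mice were compared to ask whether food deprivation changes these neurons. The members made up 2.46%, 2.67% and 4.17% of the inhibitory nuclei in the fed libraries and 3.74% and 3.31% in the fasted ones. The exact binomial 95% intervals, which cover counting error only, ran from 1.56% to 3.66% in fed replicate 1 and from 3.16% to 5.39% in fed replicate 3. The mean shares were 3.1% ± 0.93 (SD, n = 3) and 3.53% ± 0.30 (n = 2), a difference of 0.43 percentage points that was within the spread between fed libraries (exact permutation test, two-sided, p = 0.6, where 0.1 is the smallest possible). It rested on single libraries: it was 0.108 points without fed replicate 1 and 0.964 points without fed replicate 3, the library of Htr2a-Cre mice of 12 weeks, when the feeding states did not overlap (exact permutation p = 0.333, the smallest possible with 2 against 2). In replicates 1 and 2, whose numbers were taken to mark preparation batches, the fasted share was above the fed one, a pairing that the permutation test ignored.

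In sums of the members per library, 1 of 5801 genes (0.0172%) was higher in the fasted libraries and 0 (0%) lower by the quasi-likelihood test, with 97 (1.67%) and 114 (1.97%) genes at an unadjusted p under 0.05. The likelihood ratio test of edgeR called 4 higher and 0 lower, and DESeq2 1 and 0. The gene was Fth1, the heavy chain of the iron store ferritin, at 17.9, 16.9 and 23.1 CPM in the fed members and 160 and 84.3 in the fasted ones (3, 7, 19, 49 and 82 UMIs). The feeding states did not overlap, and the log2 fold change was 2.48 ± 0.37 (SE, adjusted p = 0.00119). With the preparation batch, which the replicate numbers were taken to mark, as a block the log2 fold change was 2.6 and the adjusted p 0.0955. It was 2.70 with an adjusted p of 0.207 without fed replicate 3, and 2.50 with 0.108 when nuclei were thinned to 4000 UMIs.

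The other inhibitory nuclei gave 57.4, 14.9 and 28.3 CPM in the fed libraries and 137 and 157 in the fasted ones, and the difference between the changes of the populations was 0.01 ± 0.35 on the log2 scale (SE). Fewer cells of a type and less RNA per cell cannot be told apart in such sums, and the members' mitochondrial share, given above, moved in the same direction. Astrocyte markers in the members were at 179, 109 and 158 CPM in the fed libraries and 264 and 114 in the fasted ones, and oligodendrocyte markers at 203, 164, 113, 222 and 191, so these overlapped between the feeding states. Microglial markers did not, at 0 CPM in each fed library and 9.77 and 6.17 CPM in the fasted ones, from 9 UMIs. The part that the mitochondrial share, the microglial markers or the mixture of subgroups had in the change was not tested.

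The next genes by p in each direction did not pass by the quasi-likelihood test, but 3 of them passed under some alternatives. Cst3 passed in 3 of 13, with the likelihood ratio test (adjusted p = 0.00371), without a filter (0.0107) and with at least 25 Pde1c UMIs per 10000 (0.00684), Mt1 in 2 of 12 and Pfkfb3 in 1 of 13. Among those with higher values in fasting, the protease inhibitor Cst3 stood at 47.7, 21.7 and 34.1 CPM in the fed members and 111 and 101 in the fasted ones (adjusted p = 0.0570), and metallothionein Mt1 at 23.8, 12.1 and 14.6 against 78.2 and 44.2 (adjusted p = 0.307). The ribosomal protein genes Rpl41 and Rps29 had log2 fold changes of 1.32 and 1.52 (adjusted p = 0.436 each). Among those with lower values, the glycolytic regulator Pfkfb3 stood at 71.5, 53.1 and 119 CPM in the fed members and 32.6 and 27.8 in the fasted ones, with -1.56 ± 0.37 (adjusted p = 0.307). Reln, Adora2a, Prkcd and Lpp had log2 fold changes of -1.32, -1.58, -2.05 and -1.33 with adjusted p-values of 0.436 to 0.5. Rarb (-0.52 ± 0.23), Drd2 (0.19 ± 0.27) and Crh (0.35 ± 0.52) had adjusted p-values of 0.998. Of the 29 gene lists, 23 had a gene tested for fasting, and none of those genes was called in either direction. The median log2 fold changes were -0.08 for 19 striatal genes, -0.17 for 5 neuropeptides, 0.16 for 13 genes of insulin and the fasting response, 0.13 for 8 glucocorticoid-induced genes, 0.04 for 14 clock genes and -0.10 for 6 immediate-early genes, against -0.01 over all tested genes.

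The difference between the fasting changes of the members and of the other inhibitory nuclei was tested in one model over both. Its p-values rest on a spread shared by genes of like level, with little weight on a gene's own spread between libraries. Of 12450 genes, 2 had a more positive change in the members (0.0161%) and 3 a more negative one (0.0241%). Reln, a secreted matrix protein, stood at 113, 67.5 and 125 CPM in the fed members and 35.8 and 44.2 in the fasted ones, against 41.9, 50.7 and 63.5 fed and 51.2 and 68.0 fasted in the other nuclei. The difference between the changes was -1.48 ± 0.31 on the log2 scale (SE, adjusted p = 0.00623). Lpp, an adaptor at cell contacts, stood at 41.7, 82.0 and 68.2 CPM in the fed members and 26.1 and 27.8 in the fasted ones, against 73.4 to 91.8 in the other nuclei (-1.48 ± 0.34, adjusted p = 0.0264). Both genes had lower values in each fasted than in each fed library of the members. Their calls were lost under some alternatives while the differences kept their size, at -1.67 to -1.33 for Reln and -1.60 to -1.29 for Lpp over 9 alternatives. The adjusted p of Reln was 0.183 without fed replicate 3 and 0.0713 without fasted replicate 1. That of Lpp was 0.203 without doublets, 0.0662 without fed replicate 2, 0.292 without fed replicate 3 and 0.246 without fasted replicate 1, and it passed in 3 of 9 alternatives.

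The other genes of this test overlapped between the feeding states or rested on few nuclei. Hdac9, a histone deacetylase, gave 197, 627 and 324 CPM in the fed members and 215 and 164 in the fasted ones (-0.97 ± 0.21), and Trpm3, a cation channel, gave 244, 133 and 363 against 323 and 479 (0.96 ± 0.20). Fed replicate 2 was the highest of the 5 libraries for Hdac9 and the lowest for Trpm3, and without it the differences were -0.62 and 0.53, with adjusted p-values of 0.710 and 0.905. Trpm3 was at 1.59 without fed replicate 3. Lin9, a cell cycle regulator, gave 2, 2 and 1 UMIs in the fed members and 8 and 32 in the fasted ones (3.32 ± 0.67). Its difference was 2.47 without fed replicate 3, with an adjusted p of 0.39. Without fasted replicate 2, and also with nuclei thinned to 4000 UMIs, no gene passed. The differences were then 3.18 and 2.28 for Lin9, 0.67 and 0.89 for Trpm3, and -0.64 and -0.66 for Hdac9. These genes also differed among the subgroups: Lin9 was detected in 18.2% of subgroup 3 and in 2.86% of subgroup 1, Reln stood at 152 CPM in subgroup 1 and 6.29 in subgroup 3, and Trpm3 at 661 and 107. Since the mixture of subgroups varied between libraries, its part in these differences was not tested.

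**Figure D5:**
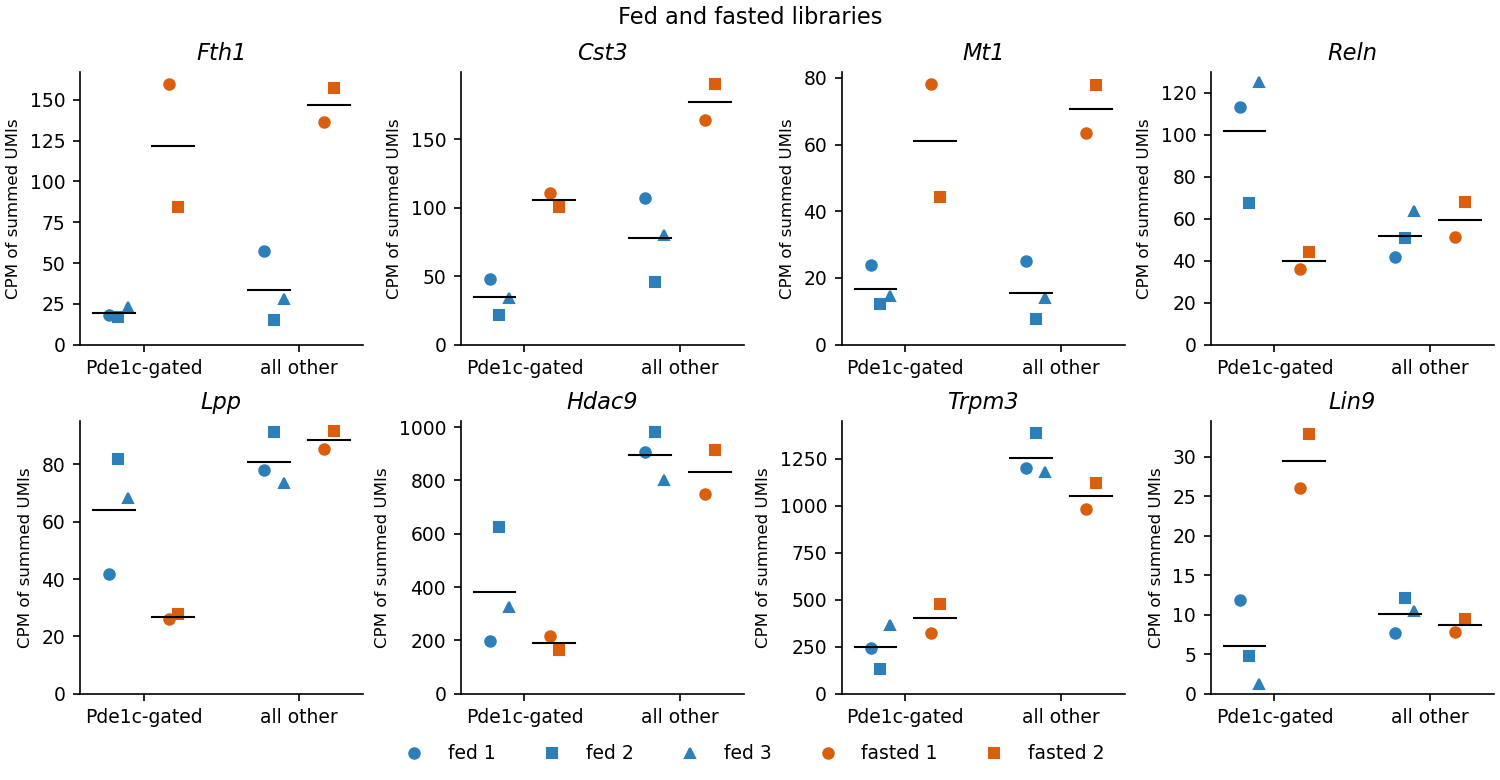
CPM of summed UMIs (linear axes from 0) of 8 genes in 3 fed (blue) and 2 fasted (orange) libraries, in the members and in all other inhibitory nuclei, with lines at the group means. Fth1 and Mt1 lie higher in the fasted libraries of both populations, Reln and Lpp lie lower in the fasted members but not in the other nuclei, and Hdac9 of the members is highest in fed replicate 2 (627 CPM).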

How the data were processed

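The authors made 3′ libraries (10x Chromium v3.1) and counted reads with Cell Ranger 5.0.0 per the file headers, with introns included, on GRCm39 with Cre and mCherry added. The submitters' processing notes name Cell Ranger 2.1.1 and mm10. The deposited values are raw UMI counts of 22532 genes per barcode, called by the authors but not filtered further. Gene positions came from GENCODE by Ensembl identifier. The members and gene lists were chosen with earlier results of these data known.

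Counts of nuclei were summed per library and population. Sums were tested with edgeR 4.0.16 in R 4.3.3 (TMM, filterByExpr, glmQLFit and glmQLFTest, Benjamini-Hochberg adjustment over all tested genes, threshold 0.05), with the library as a block between populations and no block between feeding states. Gate genes, mitochondrial genes, Cre and mCherry were left out of the tests, the last pair by a choice made after the data were seen. P-values of these tests rest on the spread between libraries of 2 pooled mice each, which the fits pooled across genes. In the fits against all other inhibitory nuclei and of the interaction, genes of like level shared a spread. A gene's own spread between libraries hardly entered there. Named genes were the 12 largest rises and 8 largest falls among called genes with the same direction in each library and at least 30 CPM, and for fasting the called genes or the 5 with the smallest p in each direction. Gene models without a proper symbol were not named. The study's supplement places fed and fasted libraries of 1 number in 1 preparation batch and a further fed library in its own, taken here to be fed replicate 3 as the remaining library. Pairing rests on that statement and on this match. In the members, deviations of same-numbered libraries correlated at 0.156 and 0.277 over 5817 genes and those of fed replicate 3 with fasted replicate 1 at 0.12, but with 2 fasted libraries each value has a mirror of opposite sign. Glial nuclei had no Gad1 or Gad2 UMI, at least 3 glial marker UMIs and at least 30 per 10000. Scrublet (scanpy 1.11.5) marked 72 of 7161 nuclei as doublets, which stayed in. Subgroups came from 15 principal components, 15 neighbours and a resolution of 0.5. The alternatives tried comprised DESeq2 1.42.0, a likelihood ratio test, no filter, no library block, a replicate block, thinning, reference nuclei matched in depth, stricter gates, doublets removed and leaving out each library. The fits against all other inhibitory nuclei and between feeding states were tested on simulated data, the other fits were not. In the simulated fasting fit the share of false calls was above the threshold, and 2-fold changes were found less often than larger ones.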

Additional observations from a re-analysis of the deposited data

Results flagged for a closer look

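A test of the interaction called 5 genes whose fasting change differed between the Pde1c-gated and the other inhibitory nuclei. The differences between the changes were 3.32 for Lin9, 0.96 for Trpm3, -1.48 for Reln, -0.97 for Hdac9 and -1.48 for Lpp on the log2 scale. No gene was called with nuclei thinned to 4000 UMIs or without fasted replicate 2, and these genes passed in 6, 6, 5, 6 and 3 of 9 alternatives.

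mCherry, which the comparisons leave out, was found in 15 of 55 members of fed replicate 3, or 27.3%, and in no member of the other 4 libraries. In the same library it was found in 32.4% of the other inhibitory nuclei and 7.02% of the glial nuclei.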

How the results depend on the processing

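Against the other inhibitory nuclei, 1012 genes higher and 1542 lower became 582 and 943 with thinning to 4000 UMIs and 670 and 691 with nuclei matched in depth, and DESeq2 gave 917 lower. Against the Rarb-gated nuclei, 642 and 691 became 410 and 456 without the library block and 392 and 400 with thinning, and DESeq2 gave 433 lower. Against the Foxp2-gated nuclei, 1046 and 1009 became 696 and 654 with DESeq2 and 584 and 591 with thinning. The named genes of these comparisons, with Rarb, Drd2 and Crh, kept their direction and their side of the threshold in 888 of 888 values under the alternatives run. The genes named by rank were picked from these same data for large changes with the same direction in each library. That choice largely set this outcome in advance. The cause of the moves in the counts was not tested.

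For fasting in the members, 1 gene higher and 0 lower became 4 and 0 with the likelihood ratio test, 5 and 4 without a filter, 0 and 0 with the replicate block or thinning, 2 and 0 with the stricter Pde1c limit, and 0 to 4 higher and 0 to 1 lower when 1 library was left out. The log2 fold change of Drd2 turned to -0.054 with thinning and ranged from -0.16 to 0.55 when 1 library was left out, and that of Crh turned to -0.10 with the replicate block and ranged from -0.14 to 0.72. For the interaction, 2 and 3 genes became 0 and 0 with thinning and 0 to 5 and 0 to 10 when 1 library was left out. There Rarb turned to 0.12 with thinning and ranged from -0.58 to 0.15 without 1 library, and Crh ranged from -0.23 to 1.17. At full depth a UMI of Rarb, Drd2 and Crh was found in a mean of 77.9%, 56.4% and 22.9% of members. With 8 to 25 Crh UMIs per library, depth limits what can be said of Crh in fasting.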
